A study of Homo sapiens with 14 samples.

Results

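The S100 genes described here encode small calcium-binding proteins. They are S100A2, S100A4, S100A6, S100A7, S100A8, S100A9, S100A10, S100A11, S100A14 and S100A16, which were chosen by name. This choice, like that of the gene lists followed below, was made with earlier results of these data known. Counts of members or list genes beside the share of all tested loci are therefore descriptions and not independent support. Each gene was taken at the locus of highest mean FPKM, fragments normalised to transcript length and library size, among the loci that carry its name. All 10 genes were found, in 9 of the 27543 named loci of the table, because S100A2 and S100A4 share 1 locus with S100A3 and cannot be separated. All 9 loci passed the filter on low values, at least 1 FPKM in at least 2 libraries, which left 13137 named loci for testing. The cells were MCF-10A, a line of immortalised breast epithelial cells that do not form tumours, taken 2 days after retroviral infection, and the 14 libraries formed 7 groups of 2. One pair carried the empty pMSCV Hygro vector and another the empty pMSCV Puro vector. YAP 5SA libraries expressed a hyperactive form of YAP, the coactivator of TEAD factors. The other 8 libraries expressed forms of MRTFB, a coactivator of the transcription factor SRF that is held inactive by G-actin. MRTF dN WT cannot bind G-actin, and this defect is shared by every MRTFB form used. MRTF dN dPY also cannot bind YAP, MRTF dN Y305A also cannot bind SRF, and MRTF dN Y305A/dPY can bind neither. The labels do not name the vector that carried each construct, and YAP 5SA was set against the Hygro vector and the MRTFB forms against the Puro vector. They also do not say whether replicates were separate infections, so p-values measure the spread between these libraries, which may be technical.

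S100 proteins carry a pair of EF-hand calcium-binding motifs and mostly act as dimers. Some are known as intracellular adaptors that bind annexins, cytoskeletal proteins or p53, and others are secreted and act on receptors such as RAGE and TLR4. S100A8 and S100A9 form calprotectin, an antimicrobial heterodimer that sequesters zinc and manganese, and S100A7 is psoriasin; in keratinocytes all 3 are known for their induction in inflamed or stressed epithelium. Most S100 genes lie in a cluster on the long arm of chromosome 1 beside the genes of the epidermal differentiation complex.

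The promoters of the members are shown because the constructs act through SRF, which binds the CArG box, and through TEAD factors, which bind an element written here as GGAATG. RefSeq windows from 250 bases before to 50 bases after the annotated start (build GRCh38.p14) were matched for 10 of 10 members, with 14 windows in all. Both strands were searched for the CArG box, for GGAATG, for the AP-1 element TGANTCA and for the TATA box TATAAA, which was added after the sequences had been seen. No member window held a CArG box, a motif found in 1.29% of all 35116 windows and, counting each gene once, in 1.6% of 27305 genes. GGAATG occurred in 1 of 10 members, S100A16, against 16.7% of genes (14% of windows), and TGANTCA in 1, S100A2, against 9.37% of genes (7.71% of windows). TATAAA occurred in 4 of 10 members, S100A4, S100A7, S100A8 and S100A9, against 14% of genes (11.5% of windows). A match is a description of letters, and its absence says only that these letters are not in this window. The 120 bases before the start are given on the gene's strand, with matches in capitals, for the S100A7 to S100A9 group that fell most, for both named ends of the merged locus, and for S100A14, whose window held no match.
S100A9, chr1:153357734-153357853, plus strand: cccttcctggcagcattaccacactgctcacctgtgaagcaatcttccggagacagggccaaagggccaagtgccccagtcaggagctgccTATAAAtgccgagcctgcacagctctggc
S100A8, chr1:153391074-153391193, minus strand: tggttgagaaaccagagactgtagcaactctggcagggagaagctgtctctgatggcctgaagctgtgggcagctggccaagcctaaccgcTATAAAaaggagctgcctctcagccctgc
S100A7, chr1:153460652-153460771, minus strand: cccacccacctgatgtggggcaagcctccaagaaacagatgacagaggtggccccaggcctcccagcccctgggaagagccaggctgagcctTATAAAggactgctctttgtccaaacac
S100A4, chr1:153545807-153545926, minus strand: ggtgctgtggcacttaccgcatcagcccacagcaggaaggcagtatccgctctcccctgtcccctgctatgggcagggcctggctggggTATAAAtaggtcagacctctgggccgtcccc
S100A2, chr1:153565845-153565964, minus strand: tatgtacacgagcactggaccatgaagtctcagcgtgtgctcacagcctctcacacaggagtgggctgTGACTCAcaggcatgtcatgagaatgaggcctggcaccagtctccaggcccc
S100A14, chr1:153616326-153616445, minus strand: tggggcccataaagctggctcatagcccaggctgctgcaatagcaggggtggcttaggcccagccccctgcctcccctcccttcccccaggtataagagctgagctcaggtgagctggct

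RNA of each introduced gene was raised in its libraries. MRTFB is listed as MKL2 and ranged from 165 to 610 FPKM where a form of it was expressed, whereas the Puro vector had 6.6 and 3.66. YAP1 reached 625 and 529 FPKM with YAP 5SA, whereas the Hygro vector had 32.4 and 23.3. MKL2 was mostly higher in the forms without SRF binding, at 404 and 294 FPKM in MRTF dN Y305A and 610 and 343 in MRTF dN Y305A/dPY. It stood at 300 and 165 in MRTF dN WT and 286 and 171 in MRTF dN dPY. MRTF dN Y305A overlapped MRTF dN WT, while MRTF dN Y305A/dPY lay above it. The part of MKL2 in the differences between these forms was not tested. Without counts the depth of a library is not known in reads. Its relative depth ran from 0.31 in Puro vector replicate 1 to 1.4 in YAP 5SA replicate 1. Puro vector replicate 1 also stood apart in its share of FPKM in unnamed loci, 58.8% against 9.99% to 38.6% in the others. That library had the highest summed FPKM as well, 5.99e+06 against 2.88e+06 in Puro vector replicate 2. The part of these sums in the comparisons with the Puro vector was not tested. Of 10 epithelial marker loci, KRT5, CDH1 and EPCAM stood at no less than 554, 79.3 and 45.2 FPKM in any library, while KRT8 and KRT18 were listed at 0 in replicate 1 of both forms without SRF binding. The list was not level across groups. In the Puro vector 1 was higher and 5 lower than in the Hygro vector, against 8.55% of all tested loci called lower. The median log2 difference was -1.95, beside -0.07 over all tested loci. In MRTF dN WT 3 were higher and 2 lower than in the Puro vector, against 21.8% and 15.0% (median 1.22 beside 0.09). The part of this list in the S100 differences was not tested. S100A8 and S100A9 are also leukocyte genes, and PTPRC, which marks leukocytes, stood at no more than 0.0316 FPKM in any library. Endothelial and fibroblast markers summed to no more than 14.8 and 16.4 FPKM.

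S100A9, the larger subunit of calprotectin, fell in YAP 5SA and in MRTF dN WT and returned to near the vector level in MRTF dN Y305A. Its level was 753 and 1021 FPKM in the Hygro vector and 1050 and 972 in the Puro vector. It was 12.2 and 17.8 in YAP 5SA, 9.48 and 8.65 in MRTF dN WT, and 11.3 and 7.76 in MRTF dN dPY. It was 381 and 841 in MRTF dN Y305A and 628 and 841 in MRTF dN Y305A/dPY. The 6 libraries of YAP 5SA and of the SRF-binding MRTFB forms were all below 18 FPKM and the other 8 all above 380, with no overlap. On the scale of log2(FPKM + 1), used for every difference given here, S100A9 was lower in YAP 5SA than in the Hygro vector by a difference of -5.80 ± 0.39 (SE; limma adjusted p = 4.59e-05), which is 55.7-fold. In these bulk samples, fewer cells with S100A9 RNA and less of it per cell cannot be told apart. The difference of MRTF dN WT from the Puro vector was -6.65 ± 0.39 (adjusted p = 1.12e-06, limma), or 101-fold. Without SRF binding the level was 56.4-fold higher than in MRTF dN WT, a log2 difference of 5.82 ± 0.39 (adjusted p = 3.13e-06, limma). MRTF dN Y305A itself differed from the Puro vector by -0.83 (95% interval -1.70 to 0.03; adjusted p = 0.135), and without replicate 2 of MRTF dN Y305A, whose level is the higher, this became -1.40 (adjusted p = 0.0381). MRTF dN Y305A/dPY differed from the Puro vector by -0.48 (95% interval -1.34 to 0.39; adjusted p = 0.387). In the order of mean levels, the Puro vector, the Hygro vector, MRTF dN Y305A/dPY and MRTF dN Y305A came first, then YAP 5SA, MRTF dN dPY and MRTF dN WT. Neighbours among the first 4 overlapped, as did MRTF dN dPY and MRTF dN WT, while YAP 5SA overlapped neither of its neighbours. Both forms without SRF binding lay below the Puro vector without overlap, whereas they overlapped the Hygro vector.

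S100A8, the calprotectin partner of S100A9, fell as far but returned only in part. It stood at 189 and 308 FPKM in the Hygro vector and 265 and 338 in the Puro vector. It stood at 0.873 and 1.40 in YAP 5SA, 0.821 and 2.47 in MRTF dN WT, and 1.21 and 1.42 in MRTF dN dPY. In the forms without SRF binding the replicates were far apart, at 4.66 and 98.3 in MRTF dN Y305A and 5.95 and 63.4 in MRTF dN Y305A/dPY. All 4 of these libraries lay above the 6 libraries of YAP 5SA and the SRF-binding forms, and all 4 lay below the vectors. The fall was -6.84 ± 1.18 in YAP 5SA (limma adjusted p = 0.00715) and -6.90 ± 1.18 in MRTF dN WT (adjusted p = 0.00156). This SE rests on a spread pooled over all groups. The SD of S100A8 in log2(FPKM + 1) was 2.92 in MRTF dN Y305A and 2.27 in MRTF dN Y305A/dPY. It was 0.25 in YAP 5SA, 0.49 in the Hygro vector and no more than 0.66 in the other groups. MRTF dN Y305A was higher than MRTF dN WT by 3.24 ± 1.18, which did not pass (limma adjusted p = 0.0913), and passed with a replicate block within the MRTFB groups (adjusted p = 0.0171) and without MRTF dN Y305A replicate 1 (difference 5.30, adjusted p = 0.00698). MRTF dN Y305A remained below the Puro vector by -3.66 ± 1.18 (limma adjusted p = 0.0437) and MRTF dN Y305A/dPY by -3.83 ± 1.18 (adjusted p = 0.0367). Neither call held when replicate 1 of the respective form was left out (S100A8 differences of -1.60 and -2.22, adjusted p = 0.345 and 0.29), or without either Puro vector replicate. In YAP 5SA the S100A8 call was lost without replicate 1 (adjusted p = 0.0558) and without replicate 2 (adjusted p = 0.0631), at differences of -6.66 and -7.01.

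S100A7, psoriasin, was lower in abundance and fell in the same groups. Its levels were 23.5 and 135 FPKM in the Hygro vector, 22.7 and 11.1 in the Puro vector and 0.298 and 0.174 in YAP 5SA. It was at 0.763 and 0 in MRTF dN WT, 0.417 and 0 in MRTF dN dPY, 0.295 and 10.2 in MRTF dN Y305A, and 0.83 and 1.95 in MRTF dN Y305A/dPY. The vectors lay above every other library, and only MRTF dN Y305A replicate 2 came near them. S100A7 fell by 5.55 ± 0.94 on the log2 scale in YAP 5SA (limma adjusted p = 0.00654) and by 3.67 ± 0.94 in MRTF dN WT (adjusted p = 0.0121). Its difference between MRTF dN Y305A and MRTF dN WT was 1.52 (95% interval -0.54 to 3.58; adjusted p = 0.335) and turned to -0.037 without MRTF dN Y305A replicate 2, but was 3.08 (adjusted p = 0.0421) without replicate 1. The S100A7 calls were lost in YAP 5SA without its replicate 2 (adjusted p = 0.0655), and in MRTF dN WT without its replicate 2 (adjusted p = 0.0695) or without Puro vector replicate 1 (adjusted p = 0.0785). S100A7A, a close paralog that could share reads with S100A7, stood at no more than 0.11 FPKM in any library.

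**Figure D1:**
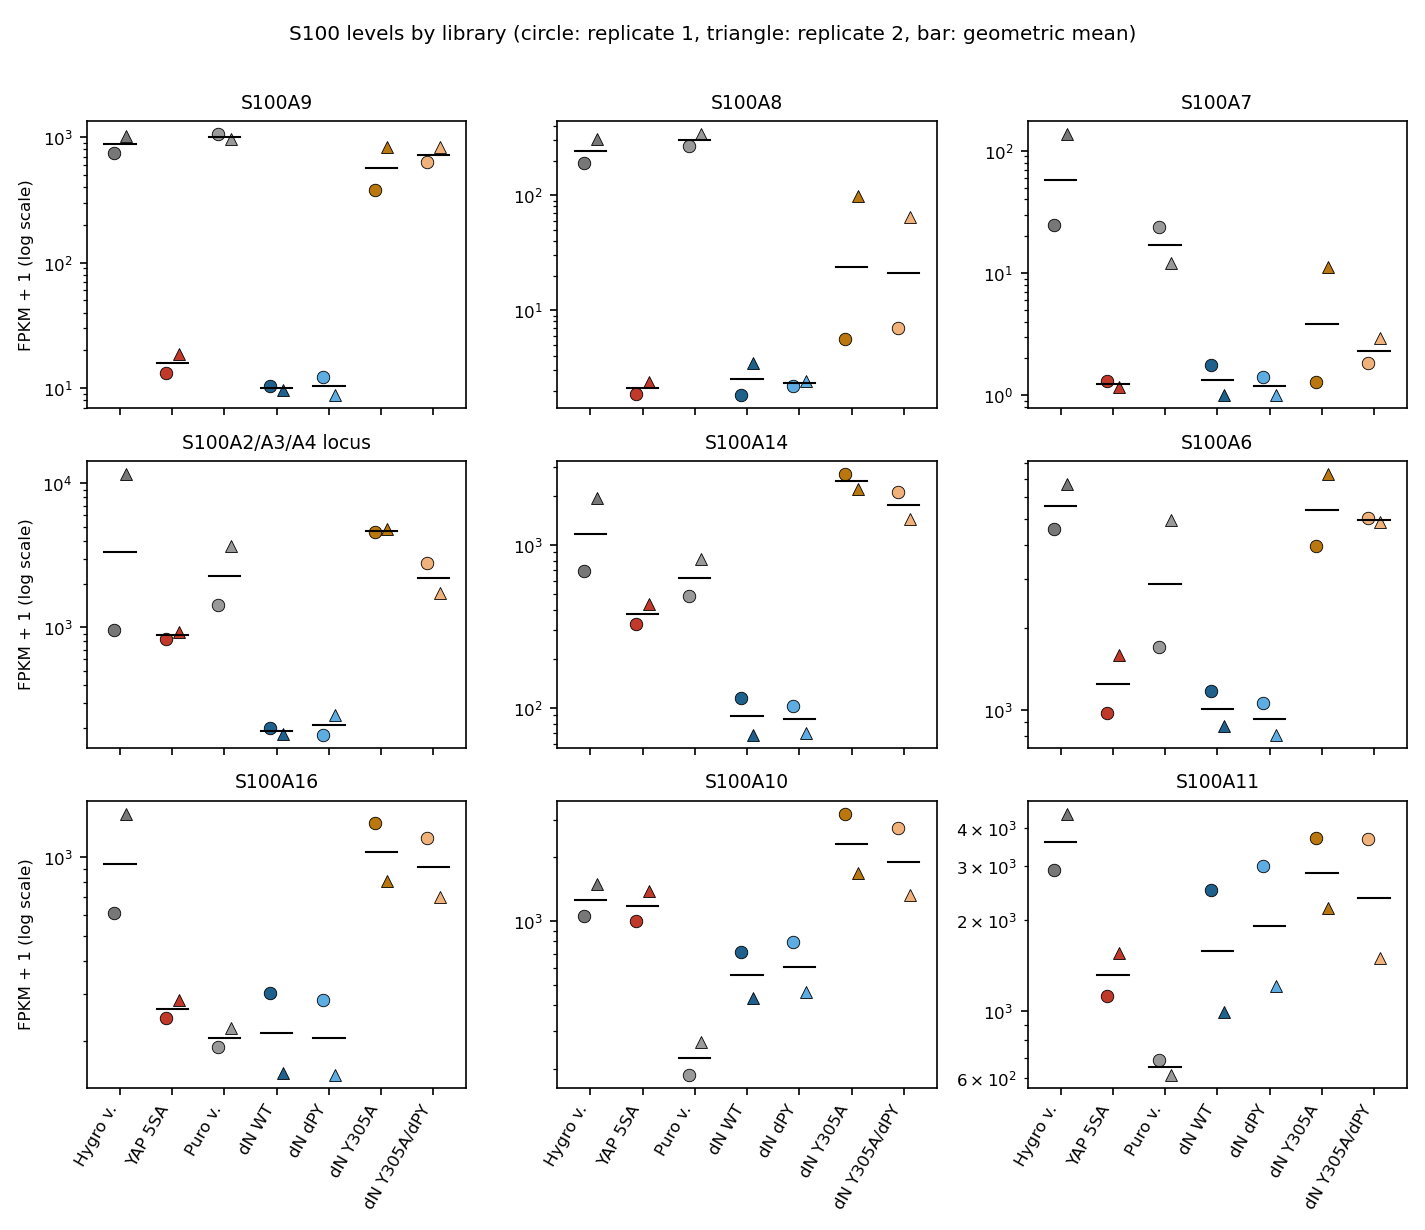
FPKM + 1 on a log axis for each S100 locus (panels) in each group (horizontal axis), with a circle for replicate 1, a triangle for replicate 2 and a bar at their geometric mean. S100A9 drops to 7.76 to 17.8 FPKM in YAP 5SA, dN WT and dN dPY and lies between 381 and 841 in the forms without SRF binding, whereas S100A10 and S100A11 are lowest in the Puro vector.

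The locus of S100A2, S100A3 and S100A4 reached the highest level of any member. S100A2 is known in basal epithelial cells as a p53 target, and S100A4, also called metastasin, binds nonmuscle myosin. The locus stood at 951 and 11571 FPKM in the Hygro vector, 1422 and 3679 in the Puro vector, and 835 and 923 in YAP 5SA. It stood at 198 and 182 in MRTF dN WT, 178 and 244 in MRTF dN dPY, 4594 and 4808 in MRTF dN Y305A, and 2801 and 1742 in MRTF dN Y305A/dPY. The SRF-binding MRTFB forms were the lowest of all groups, and Hygro vector replicates 1 and 2 differed by 3.60 in log2(FPKM + 1). The S100A2,S100A3,S100A4 locus fell by 3.58 ± 0.92 in MRTF dN WT (limma adjusted p = 0.0126). It was 24.6-fold higher in MRTF dN Y305A than in MRTF dN WT, a difference of 4.62 ± 0.92 (adjusted p = 0.0055). In YAP 5SA its difference was -1.92 (95% interval -3.95 to 0.12; limma adjusted p = 0.242), and -3.72 (adjusted p = 0.0131) without Hygro vector replicate 1. The fall in MRTF dN WT was not called without Puro vector replicate 2 (adjusted p = 0.0658) or without either MRTF dN WT replicate (adjusted p = 0.0703 and 0.0563), while the difference between MRTF dN Y305A and MRTF dN WT passed in every alternative tried. The value of S100A2 and that of S100A4 are not separately known.

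S100A14, an epithelial S100 protein that can act through RAGE, was also lowest in the SRF-binding MRTFB forms, and its highest group mean was that of MRTF dN Y305A. It stood at 696 and 1943 FPKM in the Hygro vector, 484 and 816 in the Puro vector, and 328 and 432 in YAP 5SA. It stood at 114 and 67.1 in MRTF dN WT, 102 and 68.8 in MRTF dN dPY, 2720 and 2221 in MRTF dN Y305A, and 2126 and 1437 in MRTF dN Y305A/dPY. The 4 libraries of the SRF-binding forms were the lowest of the 14, and the highest was MRTF dN Y305A replicate 1. S100A14 fell by 2.83 ± 0.53 in MRTF dN WT (limma adjusted p = 0.00268) and was 27.8-fold higher in MRTF dN Y305A than in MRTF dN WT (4.80 ± 0.53, adjusted p = 0.000115). Both calls held in every alternative tried. MRTF dN Y305A also exceeded the Puro vector, by 1.97 ± 0.53 (limma adjusted p = 0.0242), but not the Hygro vector (1.08, adjusted p = 0.41), and this S100A14 call was lost without Puro vector replicate 1 (adjusted p = 0.13), without MRTF dN Y305A replicate 1 (adjusted p = 0.156) and without its replicate 2 (adjusted p = 0.0545). The S100A14 difference in YAP 5SA was -1.62 (95% interval -2.80 to -0.45; adjusted p = 0.0885), and -2.36 (adjusted p = 0.0385) without Hygro vector replicate 1.

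S100A6, calcyclin, binds annexins and the ubiquitin ligase cofactor CacyBP. It stood at 4584 and 6721 FPKM in the Hygro vector, 1690 and 4949 in the Puro vector, and 976 and 1585 in YAP 5SA. It stood at 1167 and 871 in MRTF dN WT, 1054 and 807 in MRTF dN dPY, 3990 and 7285 in MRTF dN Y305A, and 5052 and 4863 in MRTF dN Y305A/dPY. All 6 libraries of YAP 5SA and the SRF-binding forms lay below the other 8, of which Puro vector replicate 1 was the lowest. The S100A6 difference was -2.16 ± 0.62 in YAP 5SA (limma adjusted p = 0.0565) and -1.52 ± 0.62 in MRTF dN WT (adjusted p = 0.0748), neither of which passed. The former passed with a replicate block within the MRTFB groups (adjusted p = 0.0482). The latter passed without Puro vector replicate 1 (-2.29, adjusted p = 0.0214) and against the Hygro vector (-2.46, adjusted p = 0.0177). S100A6 was higher in MRTF dN Y305A than in MRTF dN WT by 2.42 ± 0.62 (limma adjusted p = 0.0209), and this call was lost without MRTF dN WT replicate 1 (adjusted p = 0.0784) or 2 (adjusted p = 0.14) and without MRTF dN Y305A replicate 2 (adjusted p = 0.161).

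S100A16, S100A10 and S100A11 were the members that passed as different between the vectors themselves; the vectors of S100A7 also did not overlap, but its difference did not pass (-1.77, adjusted p = 0.214). S100A16 is a broadly expressed member, S100A10 forms a tetramer with annexin A2 (ANXA2) at the plasma membrane, and S100A11 binds annexin A1 (ANXA1). S100A16 stood at 609 and 1451 FPKM in the Hygro vector, 188 and 223 in the Puro vector, and 244 and 284 in YAP 5SA. It stood at 302 and 150 in MRTF dN WT, 283 and 148 in MRTF dN dPY, 1342 and 803 in MRTF dN Y305A, and 1179 and 699 in MRTF dN Y305A/dPY. The forms without SRF binding reached the Hygro vector range, and the SRF-binding forms overlapped the Puro vector. S100A16 was higher in MRTF dN Y305A than in MRTF dN WT by 2.28 ± 0.54 (limma adjusted p = 0.0149), which was lost without MRTF dN WT replicate 2 (adjusted p = 0.138) or MRTF dN Y305A replicate 1 (adjusted p = 0.11). MRTF dN WT differed from the Puro vector by 0.06 in S100A16 (95% interval -1.15 to 1.26; adjusted p = 0.948) and from the Hygro vector by -2.14 (adjusted p = 0.019). In YAP 5SA the S100A16 difference was -1.83 (95% interval -3.03 to -0.63; adjusted p = 0.0644, and 0.0157 with the replicate block within the MRTFB groups). A second, low locus that bears the S100A16 name stood between 1.6 and 14.9 FPKM and was left out.

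S100A10 stood at 1049 and 1492 FPKM in the Hygro vector, 186 and 266 in the Puro vector, and 996 and 1386 in YAP 5SA. It stood at 711 and 430 in MRTF dN WT, 790 and 460 in MRTF dN dPY, 3212 and 1683 in MRTF dN Y305A, and 2744 and 1323 in MRTF dN Y305A/dPY. YAP 5SA overlapped its vector, and the Puro vector was lower than every other group. The S100A10 difference in YAP 5SA was -0.09 (95% interval -1.28 to 1.10; limma adjusted p = 0.958) against the Hygro vector and 2.40 (adjusted p = 0.022) against the Puro vector. MRTF dN WT differed by 1.31 (adjusted p = 0.0782, and 0.0155 with the replicate block) from the Puro vector and by -1.18 (adjusted p = 0.163) from the Hygro vector. S100A10 was higher in MRTF dN Y305A than in MRTF dN WT by 2.07 ± 0.54 (limma adjusted p = 0.023), and this was lost without MRTF dN WT replicate 1 (adjusted p = 0.0519) or 2 (adjusted p = 0.171) and without MRTF dN Y305A replicate 1 (adjusted p = 0.169). The difference between MRTF dN Y305A and the Puro vector was 3.38 ± 0.54 (adjusted p = 0.00443), against 0.89 (adjusted p = 0.545) for the Hygro vector, and was not called without MRTF dN Y305A replicate 1 (adjusted p = 0.0612).

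S100A11 stood at 2921 and 4460 FPKM in the Hygro vector, 689 and 615 in the Puro vector, and 1115 and 1553 in YAP 5SA. It stood at 2499 and 989 in MRTF dN WT, 3011 and 1205 in MRTF dN dPY, 3705 and 2179 in MRTF dN Y305A, and 3684 and 1496 in MRTF dN Y305A/dPY. The 4 MRTFB groups overlapped one another, and replicate 1 was the higher in each. The S100A11 difference between MRTF dN Y305A and MRTF dN WT was 0.85 (95% interval -0.63 to 2.34; limma adjusted p = 0.472). That between YAP 5SA and the Hygro vector was -1.45 (95% interval -2.94 to 0.03; adjusted p = 0.224, and 0.0481 with the replicate block within the MRTFB groups), and that between MRTF dN WT and the Puro vector 1.27 (95% interval -0.22 to 2.76; adjusted p = 0.16, and 0.0318 with the block). These effects of YAP 5SA and MRTF dN WT on S100A11 differed from each other by -2.73, which did not pass (adjusted p = 0.053). It passed with the block (adjusted p = 0.00654) and without MRTF dN WT replicate 2 (-3.39, adjusted p = 0.0411), and turned to 2.21 (adjusted p = 0.157) when each vector was exchanged for the other.

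YAP 5SA against the Hygro vector asks which S100 genes hyperactive YAP changes. S100A7, S100A8 and S100A9 fell, 3 of 9 loci against 4.34% of all tested loci called lower, and 0 members rose, against 3.93% called higher. All loci but S100A10 had replicates below the Hygro vector without overlap, 8 of 9 against 29.1% of tested loci. These shares are of tested loci at all levels, whereas most members are abundant. The summed FPKM of a library was 2.64e+06 and 2.73e+06 in the Hygro vector, but 972057 and 1.04e+06 in YAP 5SA. The median log2 difference over all tested loci was -0.01. The part of the lower sums in the falls of the members was not tested. The largest of the 6 differences that did not pass was S100A6, at -2.16. The count was 6 with the replicate block within the MRTFB groups. That block models no pairing of Hygro vector or YAP 5SA replicates. It changes this comparison only through the spread, which is pooled over all 14 libraries. Counts with a library left out are given in the section on processing.

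MRTF dN WT against the Puro vector asks the same of MRTFB freed from G-actin. S100A9, S100A8, S100A7, the S100A2,S100A3,S100A4 locus and S100A14 fell, 5 of 9 against 15.0% of tested loci called lower. None rose in limma, against 21.8% called higher, although S100A10 and S100A11 had both replicates above the Puro vector, as did 38.0% of tested loci, and these 2 passed with the replicate block. Without MRTF dN WT replicate 2 the number of calls was 3. In MRTF dN dPY the same 5 loci fell against the Puro vector, 5 of 9 against 14.8%, with differences from -2.89 ± 0.53 for S100A14 to -7.02 ± 1.18 for S100A8; S100A9 differed by -6.60 ± 0.39 (limma adjusted p = 1.15e-06). These comparisons share the Puro vector libraries.

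The activators were also set directly against each other. S100A14 was lower in MRTF dN WT than in YAP 5SA by a difference of -2.09 ± 0.53 (limma adjusted p = 0.0174), 1 of 9 loci against 7.86% of tested loci called lower. Its 4 libraries did not overlap, at 67.1 and 114 FPKM against 328 and 432. This call was lost without YAP 5SA replicate 1 (adjusted p = 0.0615) or 2 (adjusted p = 0.121) and without MRTF dN WT replicate 2 (adjusted p = 0.114). The S100A2,S100A3,S100A4 locus differed by -2.20 (95% interval -4.23 to -0.17; adjusted p = 0.112) and S100A9 by -0.65 (95% interval -1.52 to 0.22; adjusted p = 0.264). Of the effects of each activator against its own vector, 0 of 9 loci differed between activators in limma, against 29.0% of tested loci. Other settings gave 0 to 2 loci, and 2 of 9 had an unadjusted p below 0.05. The differences ran from -2.73 to 1.67 and the 95% intervals from -4.83 to 4.54. This test therefore does not show that the activators act alike on the members.

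Loss of SRF binding was tested in both YAP-binding backgrounds. In MRTF dN Y305A against MRTF dN WT, 6 of 9 loci rose (S100A9, S100A14, the S100A2,S100A3,S100A4 locus, S100A6, S100A16 and S100A10) against 6.12% of tested loci called higher, and 0 fell against 10.6%. Without MRTF dN WT replicate 2 there were 3 calls. In MRTF dN Y305A/dPY against MRTF dN dPY, which share no library with the first pair, 5 of 9 rose against 6.76%: S100A9 by 6.13 ± 0.39 (limma adjusted p = 2.16e-06), S100A14 by 4.37 ± 0.53 (adjusted p = 0.000218), the S100A2,S100A3,S100A4 locus by 3.40 ± 0.92 (adjusted p = 0.027), S100A6 by 2.42 ± 0.62 (adjusted p = 0.0202) and S100A16 by 2.14 ± 0.54 (adjusted p = 0.0201). These 5 loci rose in both backgrounds, against 4.35% of tested loci. S100A10 differed there by 1.66 (adjusted p = 0.0582) and S100A8 by 3.19 (adjusted p = 0.0917), and both passed with the replicate block within the MRTFB groups (adjusted p = 0.00948 and 0.0181). S100A7 differed by 0.96 (95% interval -1.10 to 3.03) and S100A11 by 0.30 (95% interval -1.19 to 1.79). Only S100A9 and S100A14 kept their calls whichever library was left out; the lowest count was 2, without MRTF dN dPY replicate 2. The difference of the SRF-binding effect between the backgrounds passed for 0 of 9 loci in limma, against 0.0228% of tested loci; 0 had an unadjusted p below 0.05, and the intervals ran from -3.62 to 4.10.

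Set together, the comparisons split the members. S100A9 was the 1 locus of 9 that passed as lower in YAP 5SA, lower in MRTF dN WT and higher again in MRTF dN Y305A. The share of all tested loci with these 3 calls was not counted. It can be no larger than the 0.913% called lower in both YAP 5SA and MRTF dN WT. With the replicate block within the MRTFB groups S100A8 passed all 3 as well (adjusted p = 0.00144, 0.00019 and 0.0171). S100A9, S100A14 and the S100A2,S100A3,S100A4 locus passed as lower in MRTF dN WT and higher in MRTF dN Y305A, 3 of 9 against 2.42% of tested loci; both differences are taken from the same MRTF dN WT libraries. S100A7, S100A8 and S100A9 passed as lower in both YAP 5SA and MRTF dN WT, 3 of 9 against 0.913%. S100A6, S100A16 and S100A10 were higher in MRTF dN Y305A than in MRTF dN WT without a call between MRTF dN WT and the Puro vector. Measured from the Puro vector, the rises of S100A16 and S100A10 were not returns from a fall. MRTF dN WT differed from that vector by 0.06 and 1.31, and MRTF dN Y305A lay 5.05-fold and 10.4-fold above it. The Hygro vector had higher means, 1030 FPKM for S100A16 and 1270 for S100A10, against 226 and 571 in MRTF dN WT. Whether these rises were returns therefore depends on the vector taken, which the labels do not name for each construct. S100A11 passed in neither comparison.

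**Figure D2:**
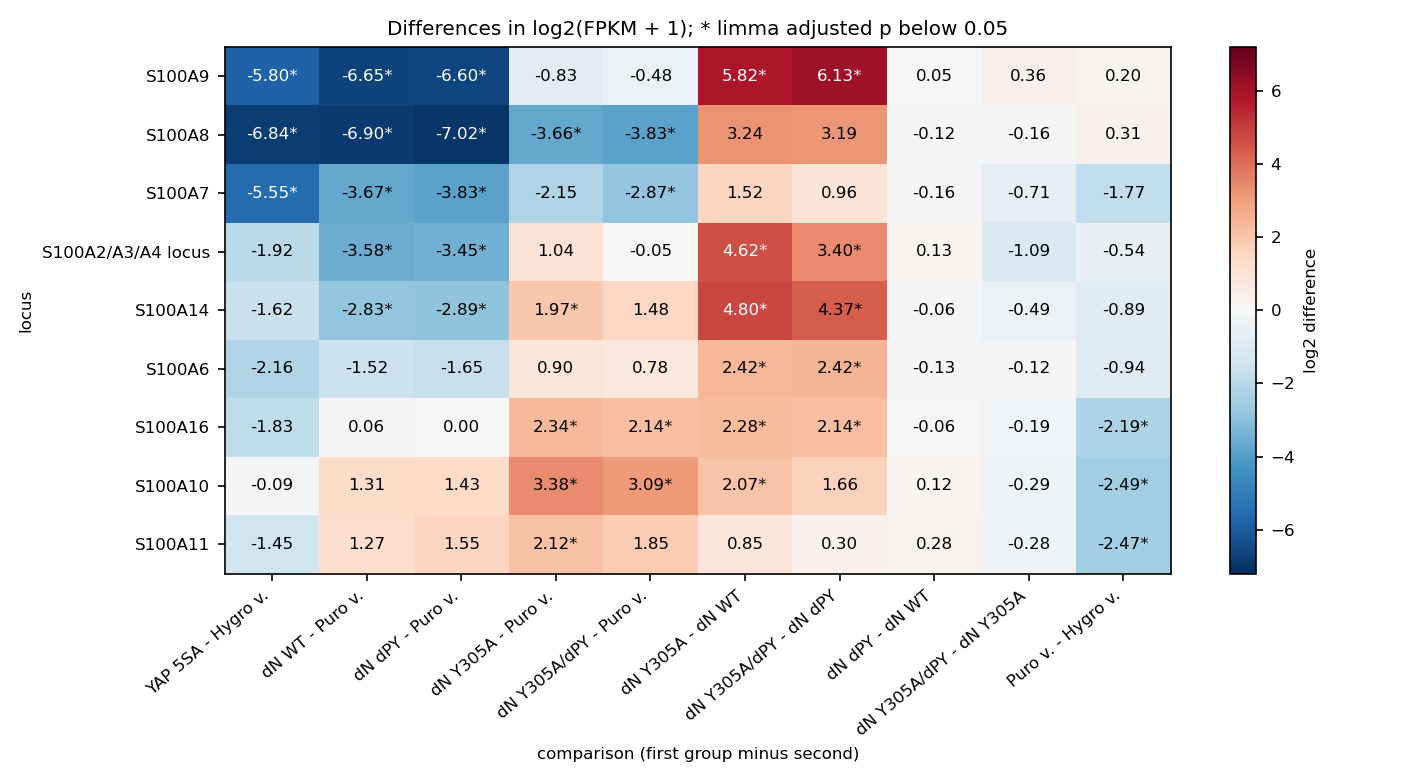
Differences in log2(FPKM + 1) for each S100 locus (vertical axis) in each comparison (horizontal axis, first group minus second), with colour for the size and a star where the limma adjusted p was below 0.05. S100A9, S100A8 and S100A7 are lower in YAP 5SA, dN WT and dN dPY, and 6 loci are starred as higher in dN Y305A than in dN WT.

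Deletion of the YAP-binding PY motif gave no call in any member. In MRTF dN dPY against MRTF dN WT 0 of 9 loci passed in limma, against 0.236% of tested loci; 0 of 9 and 438 of 13137 loci had an unadjusted p below 0.05. The differences ran from -0.16 to 0.28, and that of S100A9 was 0.05 (95% interval -0.82 to 0.92). In MRTF dN Y305A/dPY against MRTF dN Y305A 0 of 9 loci passed, against 0.0152%, and 0 of 9 and 271 of 13137 had an unadjusted p below 0.05. The differences ran from -1.09 for the S100A2,S100A3,S100A4 locus to 0.36 for S100A9. The 95% intervals of the members reach from -2.71 to 2.48 in the first comparison and from -3.12 to 2.43 in the second, so these tests do not show that the forms act alike. No alternative tried gave a member a call in either comparison.

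Against the Puro vector, forms without SRF binding held both higher and lower members. In MRTF dN Y305A 5 of 9 loci passed in either direction, against 25.2% of tested loci: S100A10, S100A11, S100A14 and S100A16 were higher and S100A8 was lower. In MRTF dN Y305A/dPY, S100A10 (3.09 ± 0.54, limma adjusted p = 0.00472) and S100A16 (2.14 ± 0.54, adjusted p = 0.0188) were higher, 2 of 9 against 15.0%, and S100A8 and S100A7 (-2.87 ± 0.94, adjusted p = 0.045) lower, 2 of 9 against 11.4%. Against the Hygro vector the counts were 0 for MRTF dN Y305A and 1 for MRTF dN Y305A/dPY. The shares of all tested loci called there are not given here. The S100A11 difference between MRTF dN Y305A and its vector, 2.12 ± 0.67 (adjusted p = 0.042), became -0.35 (adjusted p = 0.891) against the Hygro vector. The vectors themselves differed in 3 of 9 loci, all lower in the Puro vector, against 8.55% of tested loci: S100A10 by -2.49 ± 0.54 (adjusted p = 0.0189), S100A11 by -2.47 ± 0.67 (adjusted p = 0.0369) and S100A16 by -2.19 ± 0.54 (adjusted p = 0.028). None of these 3 calls held without Puro vector replicate 1 or without Hygro vector replicate 2, and that of S100A11 also failed without Hygro vector replicate 1 (adjusted p = 0.0573) or Puro vector replicate 2 (adjusted p = 0.0714). S100A9 and S100A8 differed between the vectors by 0.20 (adjusted p = 0.751) and 0.31 (adjusted p = 0.884).

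Replicates of the MRTFB groups deviated together in several members. In S100A10, S100A11, S100A14 and S100A16 replicate 2 was below replicate 1 in all 4 MRTFB groups, by 0.29 to 1.34 in log2(FPKM + 1). In S100A8 replicate 2 was above replicate 1 in all 4, by 4.13 in MRTF dN Y305A and 3.21 in MRTF dN Y305A/dPY. S100A7 also stood higher in replicate 2 of MRTF dN Y305A, by 3.12, and of MRTF dN Y305A/dPY, by 0.69. S100A9, the partner of S100A8, differed by only 1.14 and 0.42 in those groups. CD14, a monocyte and epithelial lipopolysaccharide receptor, moved in the same way: it stood at 30.6 and 149 FPKM in MRTF dN Y305A and 33 and 123 in MRTF dN Y305A/dPY, against 1.31 and 4.01 in MRTF dN WT. Of the other leukocyte markers, PTPRC, CSF3R, MPO, FCGR3B, CD3E and MS4A1 stood at no more than 0.0958 FPKM in any library. ITGAM and LYZ are also in the list, and their values are not given here. In the list 3 of 10 loci were tested, and 1 was called higher in MRTF dN Y305A than in MRTF dN WT, against 6.12% of tested loci. The summed level of the 10 loci was set by the CD68 locus, shared with EIF4A1 and other genes. That sum was 551 and 803 FPKM in the Hygro vector, 297 and 315 in YAP 5SA, 440 and 755 in the Puro vector, 449 and 388 in MRTF dN WT, 346 and 334 in MRTF dN dPY, 806 and 807 in MRTF dN Y305A, and 666 and 695 in MRTF dN Y305A/dPY. KRT8 and KRT18 were listed at 0 in replicate 1 of both forms without SRF binding and at 9623 to 16608 FPKM in replicate 2; an exact 0 in such a table can be a failed estimate, so these zeros are not read as a difference between the replicates.

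**Figure D3:**
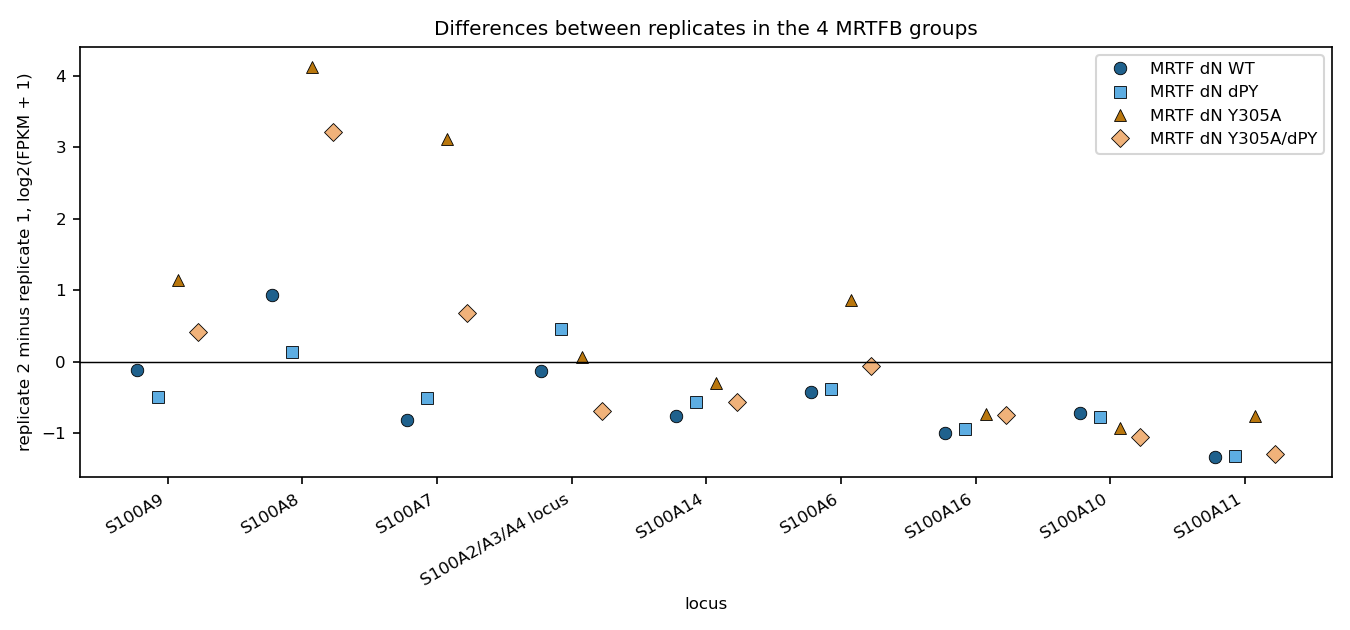
Replicate 2 minus replicate 1 in log2(FPKM + 1) (vertical axis) for each S100 locus (horizontal axis) in the 4 MRTFB groups (symbols). S100A8 is higher in replicate 2 of the forms without SRF binding by 4.13 and 3.21, while S100A10, S100A11, S100A14 and S100A16 are below 0 in all 4 groups.

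Among the other 10 S100 genes looked for, 4 loci were tested, of which 1 is the shared locus that holds S100A3; the others are S100P, S100A13 and S100A1. S100P, a RAGE ligand encoded on another chromosome, stood at 4022 and 2555 FPKM in the Hygro vector and 479.9 and 676 in YAP 5SA, a fall of -2.49 ± 0.50 (limma adjusted p = 0.0144) that was lost without Hygro vector replicate 1 (adjusted p = 0.0678) or YAP 5SA replicate 1 (adjusted p = 0.111) or 2 (adjusted p = 0.0872), and was -0.60 (adjusted p = 0.469) against the Puro vector. S100P stood at 1143 and 655 FPKM in the Puro vector and 906 and 1274 in MRTF dN WT, a difference of 0.31 (95% interval -0.80 to 1.42; adjusted p = 0.653) whose sign was not stable: it was -1.58 (adjusted p = 0.0505) against the Hygro vector and -0.089 without Puro vector replicate 2. S100A13, which takes part in the unconventional secretion of FGF1, stood at 161 and 141 FPKM in MRTF dN WT and 1023 and 731 in MRTF dN Y305A, higher by 2.52 ± 0.51 (adjusted p = 0.00601; 0.0508 without MRTF dN Y305A replicate 1). It was also higher in MRTF dN Y305A/dPY than in MRTF dN dPY, by 2.18 ± 0.51 (adjusted p = 0.0134), which did not hold without MRTF dN Y305A/dPY replicate 1 (adjusted p = 0.099) or without either MRTF dN dPY replicate (adjusted p = 0.064 and 0.0699). S100A1, known for its role in heart muscle, was low, at 6.51 and 3.13 FPKM in the Hygro vector, 1.42 and 1.03 in YAP 5SA and 1.58 and 0.797 in the Puro vector. It stood at 0.22 and 1.09 in MRTF dN WT, 0.492 and 0.494 in MRTF dN dPY, 1.19 and 1.51 in MRTF dN Y305A, and 2.71 and 4.97 in MRTF dN Y305A/dPY. S100A1 was highest in the Hygro vector and MRTF dN Y305A/dPY, which overlapped. It was called lower in YAP 5SA (-1.33 ± 0.36, limma adjusted p = 0.0483) and in the Puro than in the Hygro vector (-1.37 ± 0.36, adjusted p = 0.0335), and higher in MRTF dN Y305A/dPY than in MRTF dN dPY (1.66 ± 0.36, adjusted p = 0.00931) and than in the Puro vector (1.13 ± 0.36, adjusted p = 0.0427). Every one of these S100A1 calls was lost when some single library was left out: in YAP 5SA without Hygro vector replicate 1 (adjusted p = 0.225) or YAP 5SA replicate 1 (adjusted p = 0.138) or 2 (adjusted p = 0.291), and between the vectors without Hygro vector replicate 1 (adjusted p = 0.144) or Puro vector replicate 1 (adjusted p = 0.0525) or 2 (adjusted p = 0.0965). Against MRTF dN dPY it was lost without either replicate of that group (adjusted p = 0.0502 and 0.0518) or MRTF dN Y305A/dPY replicate 2 (adjusted p = 0.0827), and against the Puro vector without any of the 4 libraries (adjusted p = 0.0652 to 0.195). S100A12, the gene between S100A9 and S100A8, stood at no more than 1.43 FPKM and S100A5 at no more than 0.777. S100B and S100Z were listed at 0 in every library, and S100G in all but MRTF dN dPY replicate 1, where the table is empty for its chromosome and the value was set as missing.

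Genes known to be induced with S100A7, S100A8 and S100A9 in inflamed epithelium were followed as a list, of which 17 loci were tested. In YAP 5SA 0 rose and 4 fell, against 4.34% of all tested loci called lower, with a median log2 difference of -0.81 beside -0.01 over all tested loci. In MRTF dN WT against the Puro vector 0 rose and 5 fell, against 15.0% lower (median -2.07 beside 0.09). Between MRTF dN Y305A and MRTF dN WT 10 rose and 0 fell, against 6.12% higher and 10.6% lower (median 3.46 beside 0.03). The pair without the PY motif, MRTF dN Y305A/dPY against MRTF dN dPY, had 6 that rose and 0 that fell, against 6.76% higher (median 2.09 beside 0.04). SAA1, the acute-phase protein serum amyloid A, stood at 1376 and 1813 FPKM in the Puro vector, 115 and 162 in MRTF dN WT, and 1582 and 4796 in MRTF dN Y305A. CFB, complement factor B, stood at 23 and 39.1 in the Puro vector, 2.97 and 2.21 in MRTF dN WT, and 24.1 and 64.3 in MRTF dN Y305A. LCN2, an antimicrobial siderophore-binding lipocalin, stood at 13.3 and 8.15 in the Puro vector and 159 and 806 in MRTF dN Y305A. As in S100A8, the level of SAA1, CFB and LCN2 was higher in replicate 2 than in replicate 1 of MRTF dN Y305A.

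Binding partners and receptors of S100 proteins had 19 tested loci. In YAP 5SA 1 rose and 1 fell, against 3.93% and 4.34% of all tested loci. In MRTF dN WT against the Puro vector 7 rose and 0 fell, against 21.8% higher (median 0.96 beside 0.09). In MRTF dN Y305A 6 rose and 0 fell against the same vector (median 0.73 beside 0.10), where 25.2% of tested loci were called in either direction. The Puro vector had 0 higher and 3 lower than the Hygro vector, against 8.55% lower (median -0.34 beside -0.07). From MRTF dN WT to MRTF dN Y305A 2 rose and 4 fell, against 6.12% and 10.6% (median 0.26 beside 0.03). MYH9, the nonmuscle myosin heavy chain bound by S100A4, stood at 35.3 and 42.4 FPKM in the Puro vector, 970 and 866 in MRTF dN WT, and 278 and 177 in MRTF dN Y305A. TLR4, a receptor of calprotectin, stood at 0.0846 and 0.395 in the Puro vector, 34.2 and 21.9 in MRTF dN WT, and 1.28 and 0.842 in MRTF dN Y305A, so within these 3 groups it was highest where S100A8 and S100A9 were lowest. MCAM, also bound by calprotectin, stood at 0.623 and 4.75, 143 and 214, and 7.22 and 9.72 in these 3 groups in that order. ANXA2, named here after its values were seen because it pairs with S100A10, stood at 630.1 and 961 FPKM in the Puro vector, 5196 and 3554 in MRTF dN WT, and 5161 and 2839 in MRTF dN Y305A; like S100A10 it was lowest in the Puro vector.

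Of 41 other genes of the epidermal differentiation complex, which lies between S100A11 and S100A9, 10 loci reached the filter and were tested. In YAP 5SA 1 rose and 3 fell, against 3.93% and 4.34% of all tested loci (median -2.74 beside -0.01). In MRTF dN WT against the Puro vector 0 rose and 0 fell at the adjusted threshold, against 21.8% and 15.0% (median -0.34 beside 0.09). In the Puro against the Hygro vector 0 rose and 2 fell, against 8.55% lower (median -1.46 beside -0.07). From MRTF dN WT to MRTF dN Y305A 2 rose and 0 fell, against 6.12% higher (median 0.70 beside 0.03). IVL, the cornified envelope protein involucrin, stood at 43.1 and 47.7 FPKM in the Hygro vector and 5.86 and 4.3 in YAP 5SA. LCE3D, a late cornified envelope gene, stood at no more than 0.451 in the vectors, YAP 5SA and the SRF-binding forms and at 9.31 and 9.81 in MRTF dN Y305A, with 0.611 and 1.77 in MRTF dN Y305A/dPY. Calcium-binding EF-hand proteins outside the S100 family had 15 tested loci. In MRTF dN WT against the Puro vector 8 rose and 0 fell, against 21.8% of all tested loci higher (median 1.07 beside 0.09). No S100 member passed as higher there, but S100A10 and S100A11 differed by 1.31 and 1.27, with both replicates above the Puro vector. The Puro vector was itself low in the EF-hand list, with 0 higher and 4 lower than in the Hygro vector, against 8.55% lower (median -0.94 beside -0.07). In MRTF dN Y305A 8 also rose and 0 fell against the Puro vector (median 1.06 beside 0.10), where 25.2% of tested loci were called in either direction. In YAP 5SA 0 rose and 1 fell, against 3.93% and 4.34%. RCN1, reticulocalbin, stood at 75.8 and 135 FPKM in the Puro vector and 319 and 315 in MRTF dN WT.

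Along chromosome 1 the members lie in the order S100A10, S100A11, then across the differentiation complex S100A9, S100A8, S100A7, S100A6, S100A4, S100A2, S100A16 and S100A14. The 3 members with the largest falls, S100A9, S100A8 and S100A7, lie near one another, with S100A12, S100A7A and S100A7L2 among them at no more than 1.43 FPKM. The members not called lower in MRTF dN WT than in the Puro vector lie on both sides of the complex, S100A10 and S100A11 on one and S100A6 (-1.52) and S100A16 (0.06) on the other. Against the Hygro vector S100A10 and S100A11 were at -1.18 and -1.20 in MRTF dN WT. The difference between MRTF dN Y305A and MRTF dN WT did not follow the order either: S100A9 and S100A14, at 5.82 and 4.80 in log2(FPKM + 1), lie at opposite ends of the group that follows the complex. S100A7, near its middle, differed by 1.52.

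**Figure D4:**
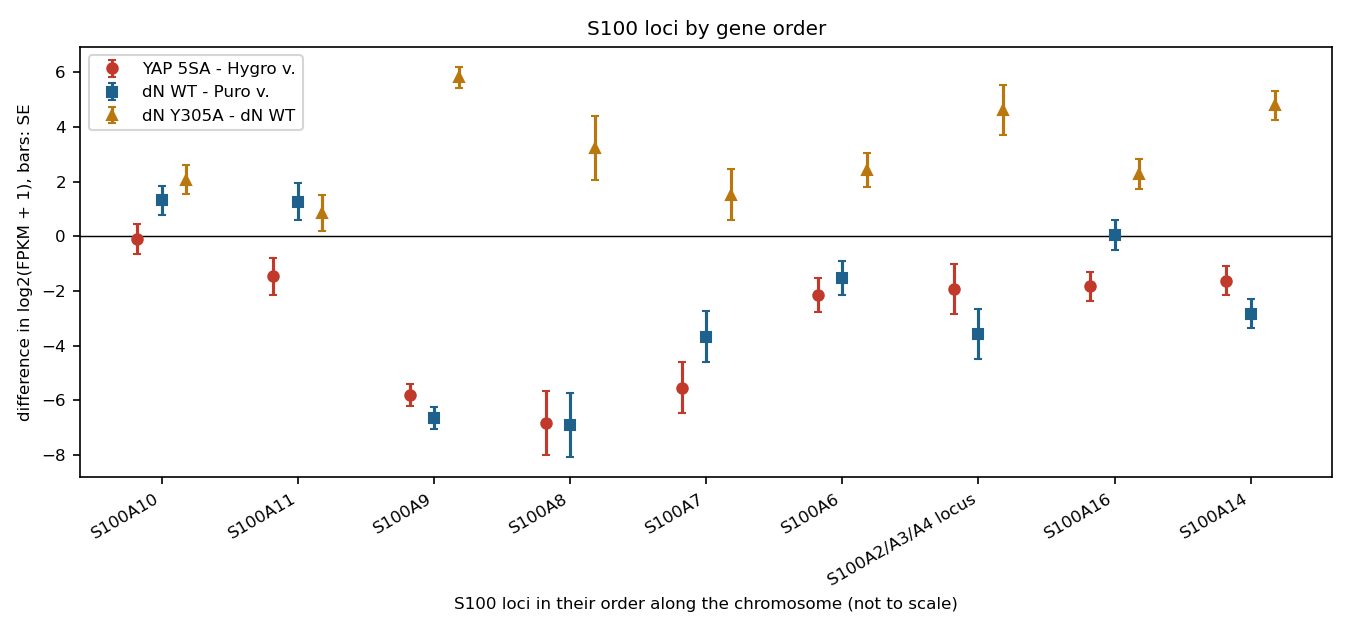
Differences in log2(FPKM + 1) with their SE (vertical axis) for the S100 loci in chromosomal order (horizontal axis, not to scale) in YAP 5SA minus Hygro vector, dN WT minus Puro vector and dN Y305A minus dN WT. S100A9, S100A8 and S100A7 have the lowest values in YAP 5SA, from -5.55 to -6.84, and S100A9 and S100A14 the highest in dN Y305A minus dN WT, at 5.82 and 4.80.

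Across the 14 libraries, which share groups and differ in depth, log2(FPKM + 1) of S100A8 correlated with S100A7 (Pearson r = 0.904) and S100A9 (r = 0.875). S100A9 was closer to S100A6 (r = 0.903) than to S100A8, and stood at r = 0.857 with S100A14 and 0.844 with the S100A2,S100A3,S100A4 locus. S100A14 correlated with the S100A2,S100A3,S100A4 locus (r = 0.939) and with S100A6 (r = 0.916), and S100A10 with S100A11 (r = 0.805) and S100A16 (r = 0.832). S100A16 was slightly closer to S100A14 (r = 0.845). S100A8 and S100A10 were at r = -0.20. These are descriptions over 14 points in 7 groups. By the same measure, the loci outside the family nearest to S100A9 were THADA (r = 0.964), CHI3L2 (r = 0.956), SLC18B1 (r = 0.948), the ADCK4,NUMBL locus (r = 0.944) and ABCC2 (r = 0.942). Those nearest to S100A8 were ARHGEF4 (r = 0.947), LDLRAD3, FAM213A, NAT10 and PC. Those nearest to the S100A2,S100A3,S100A4 locus were HMGA1 (r = 0.947), PYCARD, KCNN4, F12 and GART, and those nearest to S100A10 were PTPN1 (r = 0.970), PRR19, RALB, LCMT2 and LYPLA2. CHI3L2, a chitinase-like protein, stood at 0.521 to 0.901 FPKM in YAP 5SA and the SRF-binding MRTFB forms and at 5.02 to 13.7 in the other 8 libraries, so these did not overlap. HMGA1, an architectural chromatin protein, stood at 15.3 to 26.4 FPKM in the SRF-binding MRTFB forms and at 47.4 to 167 in the other 10 libraries.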

How the data were processed

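RNA of 14 MCF-10A libraries was sequenced as paired reads from stranded mRNA libraries, per the labels' protocols. The deposited values are FPKM made by the authors with Bowtie, TopHat, Cufflinks and Cuffnorm on hg19, per the submitters' processing notes; versions, annotation and library scaling are not given in the sources used here. All columns were matched to samples by name, and no 2 libraries had identical values. MRTF dN dPY replicate 1 is empty for 5257 loci (chromosome 7 after PPIA, and 8, 9 and X), which were set as missing; no member lies there. The 13137 named loci that reached 1 FPKM in 2 or more libraries were compared with limma 3.58.1 in R 4.3.3, on log2(FPKM + 1): all 14 libraries in 1 fit, empirical Bayes with an intensity trend, 7 residual degrees of freedom and a prior of 3.77, two-sided, Benjamini-Hochberg adjustment over all tested loci within a comparison, threshold 0.05. The pseudocount of 1 understates folds of low genes. The fit was tested on simulated data. Alternatives were a pseudocount of 0.1, no filter, median-of-ratios scaling, the compared groups only, no trend, replicate blocks, other vectors, zeros kept, loci summed, and each library left out in turn; the lone replicate of that group is then taken to vary as those of other groups do.

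Deviations from group means of same-numbered replicates correlated above 0.1 in 7 of 21 pairs of groups, among them every pair of MRTFB groups (0.318 to 0.645), so a block within those groups was added after the data were seen. In comparisons of YAP 5SA and the vectors it acts only through the pooled spread. The members and lists were chosen with earlier results of these data known. All members are given with values; of each list up to 4 genes passing in most comparisons were named, not all with values, and for 4 members the 5 non-S100 loci of mean FPKM 3 or more with the highest Pearson r. Promoter sequences and gene order are from RefSeq (GRCh38.p14), not the build of the table, and figures were drawn with Python 3.11.15.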

Additional observations from a re-analysis of the deposited data

How the results depend on the processing

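Of 37 called results of single S100 member loci, 12 kept their call in every alternative: the falls of S100A9 in YAP 5SA, of S100A8, S100A9 and S100A14 in MRTF dN WT and in MRTF dN dPY, and the higher levels without SRF binding of S100A9 and S100A14 in both backgrounds and of the S100A2,S100A3,S100A4 locus in 1. The other 25 lost the call at least once, and 2 changed sign, S100A11 in MRTF dN Y305A (-0.35) and S100A16 in MRTF dN Y305A/dPY (-0.049), both against the Hygro vector.
Numbers of S100 loci called moved as follows. For these settings, here and above, the shares of all tested loci called are not given. A moved count is therefore not read as particular to the members. Against the Hygro vector, YAP 5SA had 3, but 5 with no intensity trend, 6 with the replicate block within the MRTFB groups, and 1 to 5 with a library left out. MRTF dN WT against the Puro vector had 5 (3 to 5 with a library left out). MRTF dN Y305A against the Puro vector had 5, but 3 with no filter or with zeros kept, 0 with only the compared groups or the other vector, 2 with both vectors, and 0 to 5 with a library left out. MRTF dN Y305A/dPY against the Puro vector had 4, but 2 with no filter or zeros kept, 0 with only the compared groups, 1 with the other vector, and 0 to 4 with a library left out. MRTF dN Y305A against MRTF dN WT had 6 (3 to 6 with a library left out). MRTF dN Y305A/dPY against MRTF dN dPY had 5, but 3 with no filter and 2 to 3 with a library left out. The vectors differed in 3, but 0 with only the compared groups and 0 to 3 with a library left out. MRTF dN WT against YAP 5SA had 1, but 2 with only the compared groups or the block within the MRTFB groups, and 0 to 1 with a library left out. The effects of YAP 5SA and MRTF dN WT differed in 0, but in 1 with no trend, the replicate block over all groups or both vectors, in 2 with the block within the MRTFB groups or the other vector, and in 0 to 1 with a library left out. The replicate block over all groups moved no other count by over 1.5 times.

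With the other vector, signs turned in YAP 5SA for S100A10 (2.40), S100A11 (1.01), S100A16 (0.36) and S100A1 (0.042), and in MRTF dN Y305A/dPY for S100A1 (-0.24). They turned in MRTF dN WT for S100A10 (-1.18), S100A11 (-1.20), S100A16 (-2.14) and S100P (-1.58), and in the difference of both effects for S100A11 (2.21). With both vectors they turned for S100A10 in YAP 5SA (1.15) and for S100A16 (-1.04) and S100P (-0.63) in MRTF dN WT. S100A16 in MRTF dN WT was -0.0086 with median-of-ratios scaling. With a library left out, S100A10 ran from -0.34 to 0.16 in YAP 5SA, S100A16 from -0.45 to 0.56 and S100P from -0.089 to 0.71 in MRTF dN WT. S100A7 ran from -0.037 to 3.08 between MRTF dN Y305A and MRTF dN WT, S100A9 from -0.20 to 0.29 between MRTF dN dPY and MRTF dN WT, and S100A8 from -0.039 to 0.66 and S100A9 from -0.015 to 0.42 between the vectors. The cause was not tested. With 2 libraries a group and no counts, the depth behind a value is unknown.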
